A study of Mus musculus with 4 samples.

Results

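Semaphorins, plexins and neuropilins form a family of guidance cues and their receptors, and 31 genes of it were read out of 25239 in tables from embryonic mouse retina. Members were taken by gene symbol: 20 semaphorins of classes 3 to 7, 9 plexins and the 2 neuropilins. The study sequenced poly(A)-selected RNA of retina dissected from E13.5 embryos (E, embryonic day) in 4 libraries, 2 labelled control and 2 labelled Isl1cKO, a conditional knockout of Isl1. Isl1 is a LIM-homeodomain transcription factor of newborn ganglion cells, and the series asked what its loss does to the retinal transcriptome. The driver of the deletion, the strain, the alleles that the controls carry and the number of animals per library are not given in the sources used here. Nothing says that replicates came from separate embryos, so p-values measure only the spread between these libraries.

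Semaphorins are secreted or membrane-bound proteins that mostly repel growing axons. Plexins are the transmembrane receptors that carry the signal into the cell through a GTPase-activating domain, and neuropilins are co-receptors that bind most secreted class 3 semaphorins and also VEGF-A. In the developing retina and optic pathway these proteins are known for keeping neurites within the inner plexiform layer, for the course of ganglion cell axons toward the optic disc and chiasm, and for the patterning of blood vessels.

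Levels are given in TPM (transcript abundance scaled to length and to a fixed library sum), so that genes can be compared within a library. A difference is a log2 fold change of TPM + 1, libraries labelled Isl1cKO minus control, with its standard error (SE) from limma. A gene passed when its p-value, adjusted by the Benjamini-Hochberg method over all 13984 tested genes, was under 0.05. Tested genes had at least 1 TPM in at least 2 libraries, as 26 of the 31 members did. With 2 libraries against 2, an exact permutation test of a single value cannot go below p = 0.333, so no such test is given.

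The targeted gene was examined first. Isl1 stood at 242 and 201 TPM in control and, in the libraries labelled Isl1cKO, at 321 and 223 TPM. The groups overlapped, with a log2 fold change of 0.28 (SE 0.21; limma adjusted p = 0.683), which was 0.0144 to 0.54 with a library left out. The level of Isl1 thus did not bear out the labels, on which every direction below depends, and the tables hold no value per exon. Pax6, a gene of retinal progenitors that lens also expresses, stood at 537 and 539 TPM in control and, in the libraries labelled Isl1cKO, at 610 and 598 TPM. The summed level of 24 ganglion cell markers was 4073 and 3484 TPM in the controls and 2145 and 1498 TPM in the libraries labelled Isl1cKO. Gap43 and Nefm were among its largest parts, at 877 and 778 TPM in control replicate 1. Of the 24 markers, 20 lay lower in both libraries labelled Isl1cKO than in both controls, 1 lay higher and 3 overlapped. Pou4f2, which overlapped, stood at 126 and 124 TPM against 135 and 120 TPM, a log2 fold change of 0.02. The 12 retinal progenitor markers summed to 8211 and 7824 TPM in the controls and to 6970 and 7737 TPM in the libraries labelled Isl1cKO. In 3 of them both libraries labelled Isl1cKO lay below both controls, and in 5 above. Of all genes with a value above 0, 26.6% lay below and 13.6% above. Ccnd1, among the lower progenitor markers, stood at 1944 and 1498 TPM against 848 and 961 TPM. Its log2 fold change of -0.92 was the largest in size of the 12 and weighs on their sum. Sfrp2, like Pax6 among the higher ones, stood at 1577 and 1787 TPM against 1928 and 2352 TPM. The median log2 fold change of the 12 was 0.04. Lens markers summed to 191 and 237 TPM in the controls and to 13.3 and 9.61 TPM in the libraries labelled Isl1cKO. The libraries held 12.6 to 14.3 gigabases of aligned sequence, derived from coverage and FPKM.

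Across the family no member passed in limma, where 0.493% of all tested genes did. At an unadjusted p under 0.05 there were 11 of 26 members (42.3%), against 12.1% of all tested genes. Of these, 9 were lower and 2 higher in the libraries labelled Isl1cKO, against a background of 8.92% lower and 3.20% higher. Without control replicate 1 the count was 7. Nrp2 reached the filter only through the controls, so the counts were also taken with no filter on low values. There 0 of 31 members passed (background 0.0758%), 13 had an unadjusted p under 0.05 (background 10.5%), and 25 had a log2 fold change below 0 (background 62.1%).

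In 24 of the 31 members (77.4%) the 2 groups did not overlap, as in 40.2% of the 19784 genes with any value above 0. The filter of 1 TPM was reached by 26 of the 31 members and by 13984 of those genes. Low genes thus weigh more in this background than among the members. In 20 members both libraries labelled Isl1cKO lay below both controls (background 26.6%), and in 4 they lay above (background 13.6%). All 4 of the latter were class 3 ligands, namely Sema3a, Sema3d, Sema3e and Sema3f. Among the 26 tested members the median log2 fold change was -0.24, beside -0.05 over all tested genes. Semaphorin transcripts summed to 353 and 350 TPM in the controls and to 360 and 332 TPM in the libraries labelled Isl1cKO. Receptor transcripts summed to 372 and 344 TPM in the controls and to 311 and 289 TPM in the libraries labelled Isl1cKO. As deposited, the ligand totals thus overlapped between groups while the receptor totals did not. The totals and separations use TPM without further scaling. The median-ratio factors were 1.03 and 1.02 in the controls and 1.01 and 0.960 in the libraries labelled Isl1cKO. Narrow separations, as with Plxnb1, Plxnb2 and Sema7a, and the overlap of the ligand totals can therefore change with scaling. They were not recounted under it.

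**Figure D1:**
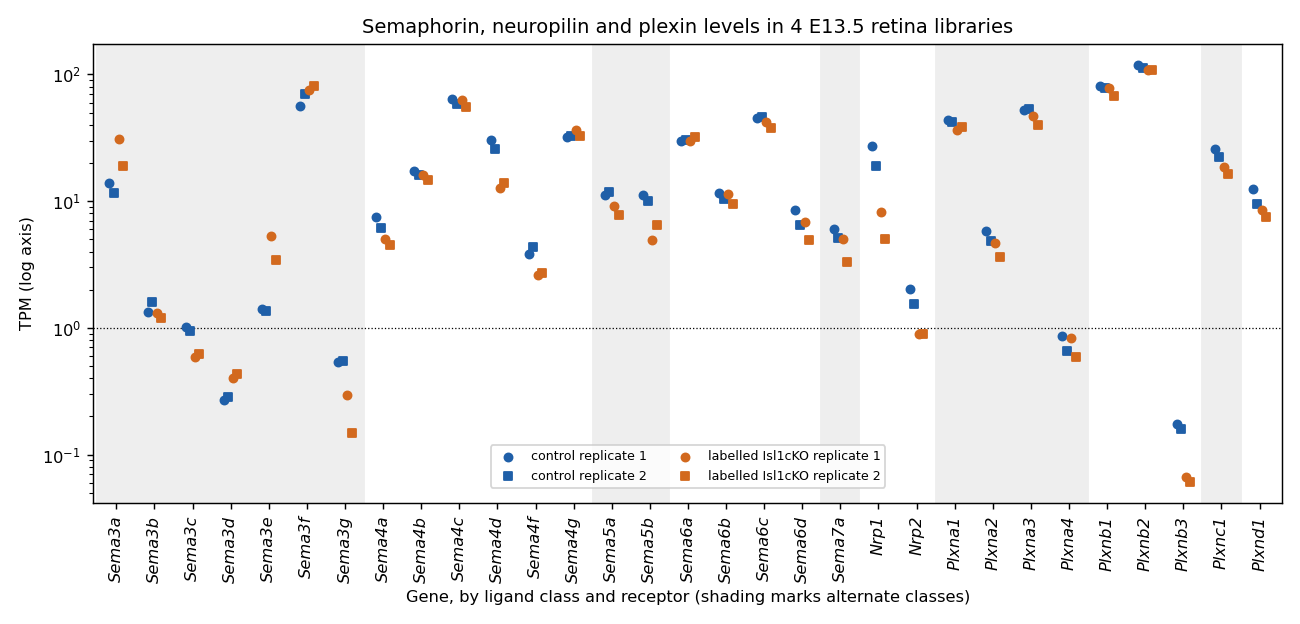
Level of each of the 31 members in TPM on a log axis, by ligand class and receptor; each point is 1 library, blue for control and orange for the libraries labelled Isl1cKO. Sema3a and Sema3e stand higher and Nrp1, Sema4d and Sema5b lower in both orange libraries, and 5 members lie under 1 TPM in at least 3 libraries.

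Stretches before a RefSeq transcription start are shown for 3 members. They are the ligand with the smallest p-value (Sema4d), the ligand with the largest difference in the other direction (Sema3e) and Nrp1, the receptor with the largest difference. Each runs 5′ to 3′ on the gene's strand over the 250 bases before a RefSeq start (GRCm38.p6), and capitals mark TAAT on either strand, the core that LIM-homeodomain and many other homeodomain proteins bind.
Sema3e, chr5:14025026-14025275, plus strand: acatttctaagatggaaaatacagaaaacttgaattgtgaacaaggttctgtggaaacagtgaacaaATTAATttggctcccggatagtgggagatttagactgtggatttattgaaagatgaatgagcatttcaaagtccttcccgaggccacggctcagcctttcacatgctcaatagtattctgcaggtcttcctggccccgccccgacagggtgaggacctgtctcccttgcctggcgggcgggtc
Nrp1, chr8:128358823-128359072, plus strand: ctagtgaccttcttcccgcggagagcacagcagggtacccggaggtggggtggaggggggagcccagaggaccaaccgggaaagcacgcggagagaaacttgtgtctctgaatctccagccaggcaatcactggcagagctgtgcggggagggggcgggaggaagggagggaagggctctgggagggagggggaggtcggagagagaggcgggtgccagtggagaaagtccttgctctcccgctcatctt
Sema4d, chr13:51739447-51739696, minus strand: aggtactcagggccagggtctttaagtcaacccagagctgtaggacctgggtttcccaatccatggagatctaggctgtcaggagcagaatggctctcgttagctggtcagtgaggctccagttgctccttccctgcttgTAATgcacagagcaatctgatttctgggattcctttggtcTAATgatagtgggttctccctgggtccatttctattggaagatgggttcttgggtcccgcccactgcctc
The Sema3e stretch holds 2 overlapping matches, 183 and 181 bases before the start, and the Nrp1 stretch holds 0. For Sema4d 3 RefSeq starts were found, all inside the gene as listed with the TPM values (51701248 to 51793747, minus strand). The 5′ end of the listed gene, at 51793747, had no window. Of the 3, the printed window was chosen for having the most matches and lies farthest from that end. It holds 2, at 110 and 70 bases before the start, while the others hold 1 and 0.

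RefSeq windows were found for 26 of the 31 members, with 37 starts. TAAT on either strand was in 14 of these (37.8%), against 54.9% of all 32851 windows of this length. The longer motif CTAATG, which contains TAAT, was in 1 of 37, the Sema4d window above, against 6.36% of all windows. GGGCGG, the GC box of many CpG-rich promoters, was in 27 of 37 (73.0%), against 32.7% of all windows. TATAAA was in 0 of 37, against 12.4% of all windows. The median GC content was 64.0% for the members' windows and 52.4% for all windows. A match describes letters in a window and is no evidence of binding.

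Class 3 semaphorins are secreted and act mostly through neuropilins with class A plexins. All 7 of them separated the groups (background 40.2%), 4 upward (background 13.6%) and 3 downward (background 26.6%). The summed level of the class was 74.4 and 86.0 TPM in the controls and 114 and 105 TPM in the libraries labelled Isl1cKO. Sema3f, a ligand that prefers neuropilin 2, made up 66.3% to 80.9% of that sum in each library. It stood at 55.9 and 69.6 TPM in control and, in the libraries labelled Isl1cKO, at 75.8 and 80.4 TPM. The groups did not overlap, but the gap between them was smaller than that between the controls. The log2 fold change of Sema3f was 0.32 (SE 0.13; limma adjusted p = 0.452), and 0.16 without control replicate 1.

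Sema3a encodes the ligand that collapses growth cones through neuropilin 1. It stood at 13.9 and 11.7 TPM in control and, in the libraries labelled Isl1cKO, at 30.8 and 19.0 TPM. Both of the latter lay above both controls, and they differed from each other by more than the controls did. The log2 fold change of Sema3a was 0.87 (SE 0.25; limma adjusted p = 0.312). Leaving out Isl1cKO replicate 1 made it 0.54, and leaving out Isl1cKO replicate 2 made it 1.21.

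Sema3e (chromosome 5, 14025276 to 14256689, plus strand) encodes a ligand that binds plexin D1 directly, without a neuropilin, and is known for repelling blood vessels. It stood at 1.40 and 1.36 TPM in control and, in the libraries labelled Isl1cKO, at 5.26 and 3.41 TPM. The controls were nearly equal, and the lower of the other libraries was well above both. The means were 1.38 ± 0.0265 and 4.34 ± 1.31 TPM (SD, n = 2 each), a 3.15-fold ratio. On the log2 scale of TPM + 1 the difference was 1.14 (SE 0.19; limma adjusted p = 0.145). Of the 26 tested members, Sema3e had the largest positive difference.

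The other class 3 ligands stood near or below the filter of 1 TPM. Sema3b stood at 1.33 and 1.61 TPM in control and, in the libraries labelled Isl1cKO, at 1.31 and 1.20 TPM, a log2 fold change of -0.13 (SE 0.10). Sema3c stood at 1.02 and 0.939 TPM against 0.589 and 0.618 TPM, and Sema3g, known from the endothelium of blood vessels, at 0.537 and 0.548 TPM against 0.296 and 0.147 TPM. Sema3d stood at 0.271 and 0.283 TPM against 0.399 and 0.433 TPM. Each of these separated the groups, and Sema3c, Sema3d and Sema3g were too low to be tested.

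Of the 7 class 3 genes, 4 lie on chromosome 5, 2 on chromosome 9 and 1, Sema3g, on chromosome 14 (mm10, the build in the submitters' processing notes). Sema3d, Sema3a, Sema3e and Sema3c lie in this order on chromosome 5, from 12383166 to 17730267, all on the plus strand. The first 3 stood higher in the libraries labelled Isl1cKO and Sema3c stood lower. Sema3a ends 422 kb before Sema3e begins, and Sema3e ends 3318 kb before Sema3c begins. On chromosome 9, Sema3b and Sema3f lie 72.3 kb apart on the minus strand, and Sema3f stood higher while Sema3b stood lower.

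Class 4 semaphorins are membrane-bound ligands, several of which bind class B plexins. Of 6 members, 5 had a log2 fold change below 0 (background 62.1%) and 3 separated the groups (background 40.2%). Sema4d, the ligand of plexin B1, stood at 30.4 and 25.9 TPM in control and, in the libraries labelled Isl1cKO, at 12.8 and 14.0 TPM. Both of the latter were near one level, and the lower control was well above them. The means were 28.2 ± 3.20 and 13.4 ± 0.857 TPM (SD, n = 2 each), 2.10-fold lower in the libraries labelled Isl1cKO.

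The log2 fold change of Sema4d was -1.01 (SE 0.11), and its adjusted p-value of 0.0713 in limma was the smallest of the family. It passed with a filter of 5 TPM (adjusted p-value 0.0444), with FPKM (0.0346) and with a mean-variance trend (0.0264). It did not pass at a pseudocount of 0.1 (0.120) or with no filter (0.171). Sema4d is also known from lymphoid and myeloid cells. Summed over 10 microglia markers the level was 85.0 and 89.6 TPM in the controls and 102 and 126 TPM in the libraries labelled Isl1cKO. Of the 24 ganglion cell markers, 20 separated the groups downward, as Sema4d did (background 26.6%), 1 separated them upward and 3 overlapped. The part of either cell type in the level of Sema4d was not tested. Sema4d lies on chromosome 13 (51701248 to 51793747, minus strand), which also carries Isl1 (116298270 to 116309688).

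Sema4f and Sema4a were the other class 4 genes that separated the groups. Sema4f stood at 3.85 and 4.34 TPM in control and, in the libraries labelled Isl1cKO, at 2.63 and 2.71 TPM, a log2 fold change of -0.47 (SE 0.09; limma adjusted p = 0.183). Sema4a stood at 7.51 and 6.17 TPM against 4.99 and 4.50 TPM, a log2 fold change of -0.45 (SE 0.12; limma adjusted p = 0.295). Sema4a is needed for the survival of photoreceptors in the mature retina. All 8 photoreceptor precursor markers had a log2 fold change below 0 (background 62.1%), with a median of -0.45. Of these 8, 4 separated the groups downward (background 26.6%) and none passed in limma. The sum over all 8, mostly from Otx2 and Neurod1, was 379 and 343 TPM in the controls. In the libraries labelled Isl1cKO it was 345 and 277 TPM, which overlapped. Of 10 pigment epithelium markers, 4 separated the groups downward (background 26.6%) and 6 overlapped. All 10 summed to 47.8 and 39.9 TPM in the controls and to 38.5 and 28.7 TPM in the libraries labelled Isl1cKO. The part of either cell type in the level of Sema4a was not tested.

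Sema4c, Sema4g and Sema4b overlapped between groups, the first 2 being the most abundant of the class. Sema4c stood at 63.9 and 58.4 TPM in control and, in the libraries labelled Isl1cKO, at 63.3 and 55.8 TPM. Its log2 fold change was -0.04 (SE 0.11), which turned to 0.02 under median-ratio scaling. Sema4g stood at 32.3 and 32.7 TPM against 36.5 and 32.6 TPM, and Sema4b at 17.2 and 16.0 TPM against 16.2 and 14.8 TPM. Within 1 class, Sema4d was thus somewhat under Sema4g in the controls and well under it in the libraries labelled Isl1cKO.

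Class 5 semaphorins span the membrane and carry thrombospondin repeats. Sema5a and Sema5b are known to confine retinal neurites to the inner plexiform layer through plexin A1 and plexin A3. Sema5b stood at 11.1 and 9.95 TPM in control and, in the libraries labelled Isl1cKO, at 4.90 and 6.47 TPM. The log2 fold change was -0.80 (SE 0.15; limma adjusted p = 0.171). Sema5a stood at 11.1 and 11.8 TPM against 9.23 and 7.79 TPM, a log2 fold change of -0.39 (SE 0.11; limma adjusted p = 0.305). Both genes separated the groups, and both had an unadjusted p under 0.05. In the controls they stood at nearly the same level, and in the libraries labelled Isl1cKO Sema5b was the lower of the pair.

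Class 6 semaphorins are transmembrane ligands of class A plexins that can also act as receptors. Their summed level was 95.3 and 93.3 TPM in the controls and 90.1 and 84.7 TPM in the libraries labelled Isl1cKO, and none of the 4 had an unadjusted p under 0.05. Sema6c, the most abundant, stood at 45.5 and 45.9 TPM against 41.8 and 38.0 TPM, a log2 fold change of -0.19 (SE 0.09; limma adjusted p = 0.487). Sema6a, which acts with plexin A2 and plexin A4 in the retina, stood at 29.7 and 30.5 TPM against 30.1 and 32.2 TPM, so the groups overlapped. Its log2 fold change of 0.05 (SE 0.08) turned to just below 0 without Isl1cKO replicate 2. Sema6b stood at 11.6 and 10.4 TPM against 11.4 and 9.50 TPM. Sema6d, a cue for axons at the optic chiasm, stood at 8.55 and 6.53 TPM against 6.83 and 4.93 TPM, and also overlapped.

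Sema7a is the only semaphorin anchored by a lipid, and it signals through plexin C1 and integrin beta 1. It stood at 6.04 and 5.08 TPM in control and, in the libraries labelled Isl1cKO, at 5.07 and 3.30 TPM. Replicate 1 of the latter lay just under control replicate 2, and the log2 fold change was -0.36 (SE 0.20; limma adjusted p = 0.565). Leaving out replicate 2 of the latter brought Sema7a to -0.11, and leaving out its replicate 1 to -0.61. Sema7a is also carried by red blood cells. The red blood cell markers summed to 2904 and 4170 TPM in the controls and to 1419 and 205 TPM in the libraries labelled Isl1cKO, and their part in the level of Sema7a was not tested.

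**Figure D2:**
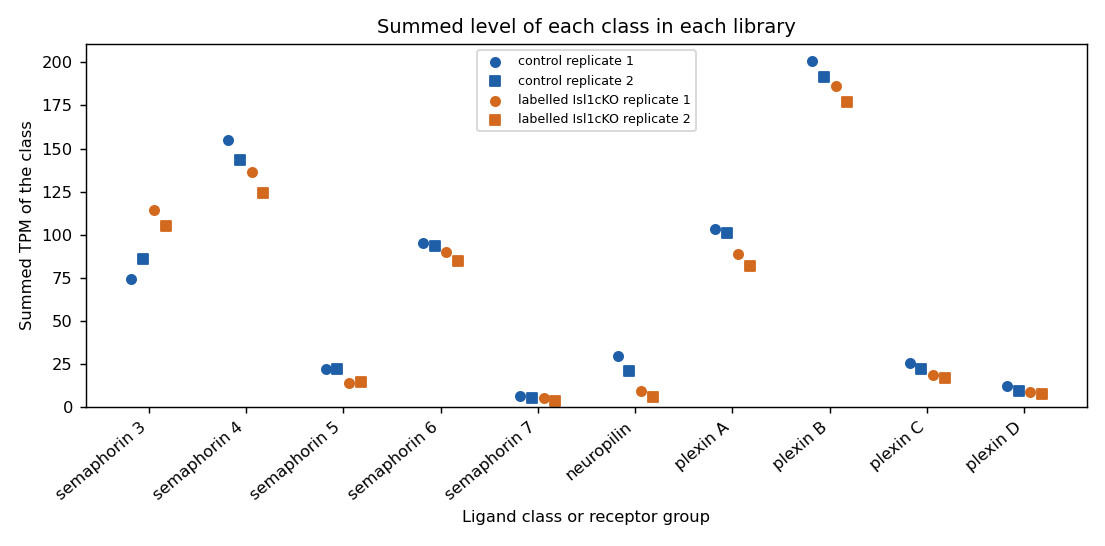
Summed TPM of each ligand class and receptor group in each of the 4 libraries (1 point each, linear axis from 0). The class 3 sum is higher in both libraries labelled Isl1cKO (114 and 105 TPM) than in the controls (74.4 and 86.0 TPM), and the neuropilin sum is lower (9.14 and 5.95 against 29.5 and 20.6 TPM).

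Among the receptors, all 11 genes had a log2 fold change below 0 with no filter on low values (background 62.1%). In TPM as deposited, both libraries labelled Isl1cKO lay below both controls in 10 of them (background 26.6%). For Plxnb1 and Plxnb2 that separation was narrow. Nrp1 (chromosome 8, 128359073 to 128505475, plus strand), the neuropilin of Sema3a and VEGF-A, stood at 27.5 and 19.0 TPM in control and, in the libraries labelled Isl1cKO, at 8.24 and 5.06 TPM. Each of the latter was under the lower control by more than the controls differed. The means were 23.2 ± 5.96 and 6.65 ± 2.25 TPM (SD, n = 2 each), a 3.49-fold lower level. The log2 fold change was -1.67 (SE 0.28; limma adjusted p = 0.149), the largest in size among the tested members. It ranged from -1.98 without Isl1cKO replicate 1 to -1.37 without Isl1cKO replicate 2.

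Nrp2, the neuropilin of Sema3f, was scarce. It stood at 2.03 and 1.56 TPM in control and, in the libraries labelled Isl1cKO, at 0.898 and 0.895 TPM. The log2 fold change was -0.55 (SE 0.11; limma adjusted p = 0.206). Nrp1 made up 92.4% to 93.1% of neuropilin transcripts in the controls and 85.0% to 90.2% in the libraries labelled Isl1cKO. In the controls the level of Sema3a was 0.507 and 0.613 times that of Nrp1, and in the libraries labelled Isl1cKO it was 3.73 and 3.75 times.

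Nrp1 is made by ganglion cells and by endothelium. The ganglion cell markers differed in the same direction as Nrp1: 20 of 24 separated the groups downward, and 3 of the 23 tested passed. In bulk tissue, fewer cells of a type and less RNA per cell cannot be told apart. Of 10 endothelial markers, 9 separated the groups downward (background 26.6%) and 8 were too low to be tested. The sum over all 10 was 88.2 and 65.4 TPM in the controls and 63.3 and 59.6 TPM in the libraries labelled Isl1cKO. Kdr alone gave 55.5 to 69.0 TPM of that sum. Pecam1 stood at 2.45 and 0.592 TPM against 0.681 and 0.296 TPM, and Cdh5 at 2.55 and 0.357 TPM against 0.211 and 0 TPM. The part of ganglion cells and of endothelium in the level of Nrp1 was not tested.

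Class A plexins pair with neuropilins for class 3 ligands and bind class 5 and 6 ligands directly. Plxna3 stood at 52.8 and 53.1 TPM in control and, in the libraries labelled Isl1cKO, at 47.1 and 39.5 TPM, a log2 fold change of -0.29 (SE 0.11; limma adjusted p = 0.426) that was -0.17 without Isl1cKO replicate 2. Plxna1 stood at 43.9 and 42.0 TPM against 36.3 and 38.3 TPM, with a log2 fold change of -0.20 (SE 0.08). Plxna2, a receptor of Sema6a, stood at 5.78 and 4.87 TPM against 4.67 and 3.63 TPM. All 3 separated the groups, and none had an unadjusted p under 0.05. Plxna4 stood at 0.868 and 0.654 TPM against 0.831 and 0.589 TPM, the only receptor whose groups overlapped.

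Class B plexins bind class 4 semaphorins and were the most abundant receptors. They made up 58.7% and 59.1% of plexin transcripts in the controls and 61.6% and 62.5% in the libraries labelled Isl1cKO. Plxnb2 stood at 119 and 112 TPM in control and, in the libraries labelled Isl1cKO, at 108 and 109 TPM, a log2 fold change of -0.09 (SE 0.08; limma adjusted p = 0.715). Plxnb1, the receptor of Sema4d, stood at 81.6 and 78.7 TPM against 78.2 and 67.9 TPM, a log2 fold change of -0.14 (SE 0.10; limma adjusted p = 0.681) that was -0.0349 without Isl1cKO replicate 2. Replicate 1 of the libraries labelled Isl1cKO lay just under the lower control. Plxnb3 stood at 0.174 and 0.160 TPM against 0.0659 and 0.0605 TPM and was not tested.

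Plexin C1 and plexin D1 are single members of their classes. Plxnc1, the receptor of Sema7a, stood at 25.7 and 22.1 TPM in control and, in the libraries labelled Isl1cKO, at 18.5 and 16.5 TPM, a log2 fold change of -0.43 (SE 0.12; limma adjusted p = 0.295). Plxnd1, the receptor of Sema3e, stood at 12.4 and 9.46 TPM against 8.44 and 7.47 TPM, a log2 fold change of -0.40 (SE 0.15; limma adjusted p = 0.409). Without control replicate 1, the library with the highest endothelial sum, that of Plxnd1 was -0.23. Both genes separated the groups. Plxnd1 is known from endothelium, whose markers differed in the same direction (above), and the part of those cells in its level was not tested. The level of Sema3e was 0.113 and 0.144 times that of Plxnd1 in the controls and 0.623 and 0.457 times in the libraries labelled Isl1cKO.

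**Figure D3:**
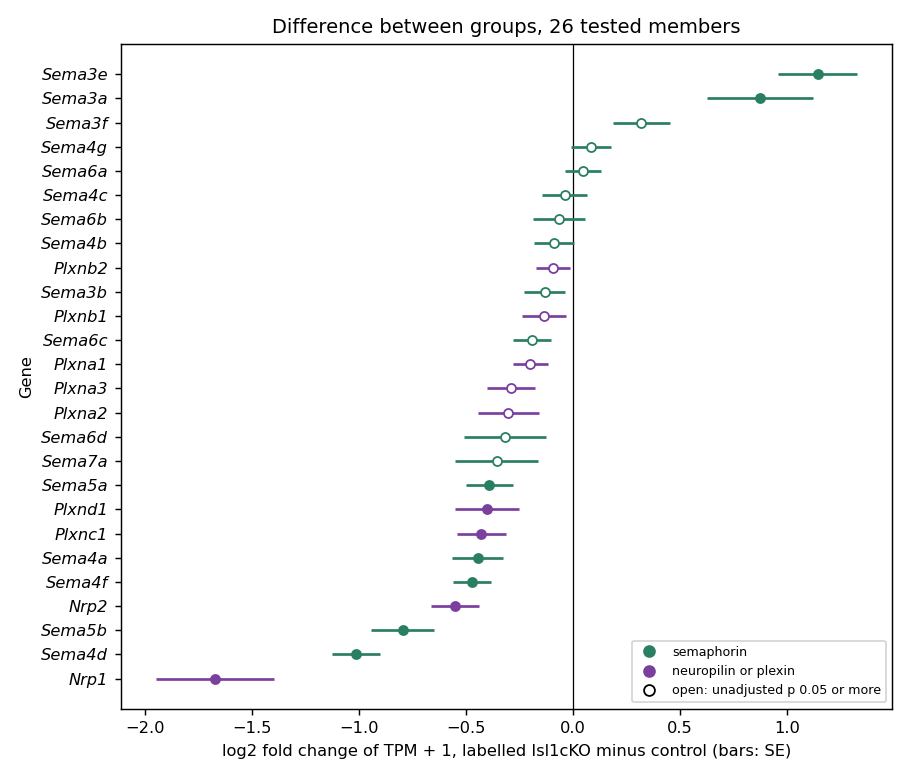
Log2 fold change of TPM + 1 (libraries labelled Isl1cKO minus control) of the 26 tested members, with bars of 1 SE; green marks semaphorins, purple neuropilins and plexins, and open points an unadjusted p of 0.05 or more. The 9 tested receptors lie left of 0, Nrp1 farthest at -1.67, and Sema3e lies farthest right at 1.14.

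Ordered by their mean over the 4 libraries, the receptors ran from Plxnb2 (112 TPM) through Plxnb1 (76.6 TPM), Plxna3 (48.1 TPM) and Plxna1 (40.1 TPM) to Plxnc1 (20.7 TPM), Nrp1 (14.9 TPM) and Plxnd1 (9.43 TPM). The order of the first 4 was the same in every library, with Plxna3 and Plxna1 closest in Isl1cKO replicate 2. Nrp1 exceeded Plxnc1 in control replicate 1 alone, and in the libraries labelled Isl1cKO it was also under Plxnd1, narrowly so in replicate 1. Among the ligands Sema3f (70.5 TPM) and Sema4c (60.3 TPM) were highest, and their order was reversed in control replicate 1. Sema6c (42.8 TPM), Sema4g (33.5 TPM) and Sema6a (30.6 TPM) came next.

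**Figure D4:**
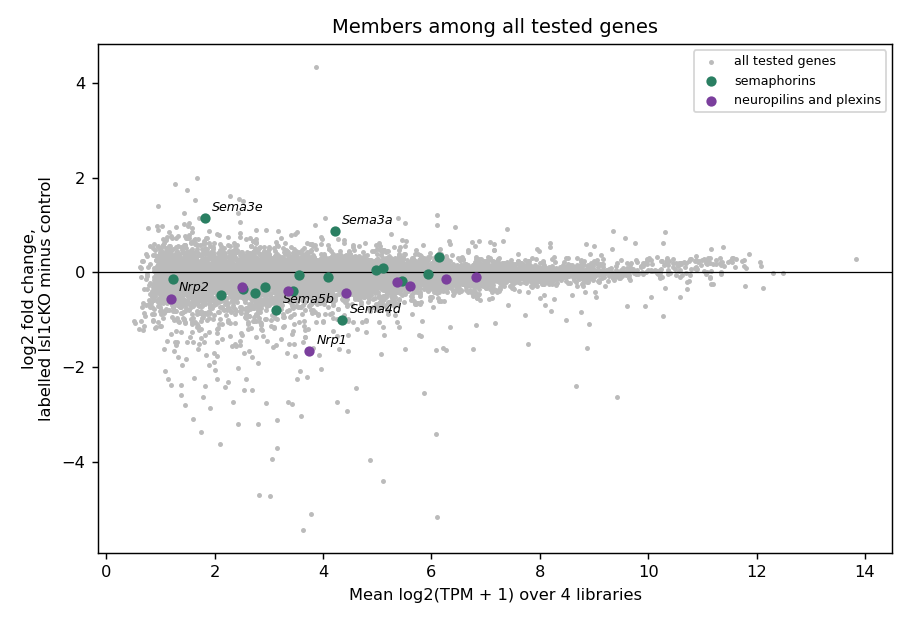
Log2 fold change against mean log2(TPM + 1) over the 4 libraries for the 13984 tested genes (grey), with semaphorins in green and neuropilins and plexins in purple; members beyond 0.5 in size are named. Most members lie near 0 among genes of like level, with Nrp1 and Sema4d toward the lower edge and Sema3e and Sema3a toward the upper edge.

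Partners and effectors of the pathway were read from 2 lists. The first held 17 co-receptors and ligand partners, 13 of them tested. None passed in limma (background 0.493%), 7 had an unadjusted p under 0.05 (6 lower, 1 higher; background 12.1%), and the median log2 fold change was -0.18. Cntn2, an axonal adhesion molecule, stood at 84.5 and 74.1 TPM in control and, in the libraries labelled Isl1cKO, at 29.3 and 21.7 TPM, a log2 fold change of -1.61 (SE 0.17; limma adjusted p = 0.0649). It passed with a filter of 5 TPM, with FPKM, with median-ratio scaling and with a mean-variance trend. It did not pass at a pseudocount of 0.1, with no filter or without any single library.

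L1cam, which forms a complex with neuropilin 1 for the response to Sema3a, stood at 54.8 and 46.6 TPM against 26.6 and 18.6 TPM, a log2 fold change of -1.15 (SE 0.20; limma adjusted p = 0.158). It is also 1 of the 24 ganglion cell markers. Sdc3, a heparan sulphate proteoglycan, stood at 53.3 and 39.4 TPM against 30.2 and 29.6 TPM. Vegfa, the other main ligand of neuropilin 1, stood at 125 and 115 TPM in control and, in the libraries labelled Isl1cKO, at 166 and 167 TPM. Its log2 fold change was 0.47 (SE 0.09; limma adjusted p = 0.171), and among the alternatives it passed with a mean-variance trend alone. Sema3a and Vegfa, ligands of neuropilin 1, stood higher in the libraries where Nrp1 stood lower. None of these genes passed in limma, and a link between their levels was not tested.

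The second list held 43 effectors of plexin signalling, 42 of them tested. None passed in limma, 8 had an unadjusted p under 0.05, all of them lower (19.0%, against 8.92% of tested genes), and the median log2 fold change was -0.16. Crmp1 and Dpysl4, collapsin response mediator proteins that relay Sema3a to the cytoskeleton, stood at 234 and 200 TPM against 148 and 120 TPM, and at 170 and 152 TPM against 118 and 100 TPM. Their log2 fold changes were -0.70 (SE 0.15) and -0.56 (SE 0.12). Cdk5r1, the activator of the kinase Cdk5, stood at 49.1 and 41.1 TPM against 32.0 and 24.1 TPM, and Fyn, a kinase bound to plexin A, at 89.0 and 83.9 TPM against 68.7 TPM in both libraries labelled Isl1cKO. All 4 separated the groups. Crmp1, Dpysl4 and Cdk5r1 are neuronal genes, and most of the ganglion cell markers given above differed in the same direction. The part of those cells in these levels was not tested.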

How the data were processed

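RNA sequencing values of 4 retina libraries were used as deposited, 1 table per library. The submitters' processing notes name Trimmomatic, FastQC, HISAT2, SAMtools, StringTie and DESeq2 and the build mm10, with no roles or versions. Per the file headers, the deposited TPM are scaled to length and to a fixed sum (1000000 in each library), the deposited FPKM to length and library total, and the deposited coverage signal is mean depth per base. Depth in reads is unknown, and the ratio of coverage to FPKM gave gigabases of aligned sequence.

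TPM were summed over repeated rows of a gene, although no member stood on more than 1 row. The values log2(TPM + 1) of genes with at least 1 TPM in at least 2 libraries entered a linear model with a genotype term alone (limma 3.58.1, R 4.3.3, eBayes with a constant prior), with Benjamini-Hochberg adjustment. Fold changes on this scale understate those of low genes. Whether reads were assigned by strand is not given in the sources used here. A member is overlapped by another listed gene in 7 cases, each with a low value. The model was tested on simulated data.

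Full values were given for members with an unadjusted p under 0.05 and for the 3 highest ligands and receptors, and up to 8 partners or effectors by smallest p were named. Endothelial, microglial and retinal marker genes named singly were chosen after their values were seen. The members and lists were chosen with earlier results of these data known. Alternatives were a pseudocount of 0.1, no filter, a filter of 5 TPM, FPKM, median-ratio scaling, a mean-variance trend, the replicate block and leaving out each library.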

Additional observations from a re-analysis of the deposited data

How the results depend on the processing

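No member passed in limma, as also at a pseudocount of 0.1, with no filter, under median-ratio scaling and without any single library. The count was 1 (Sema4d) with a filter of 5 TPM, 1 with FPKM and 1 with a mean-variance trend. Members at an unadjusted p under 0.05 numbered 11, 9 to 15 under the other settings, and 7 to 14 with a library left out, lowest without control replicate 1. Of the partner and effector genes 0 passed, but 1 (Cntn2) did at 5 TPM, 1 with FPKM, 1 under median-ratio scaling and 2 (Cntn2 and Vegfa) with a mean-variance trend. The 15 of them at an unadjusted p under 0.05 became 6 to 19 with a library left out. Over all genes the 69 called (65 lower) were 44 (41) at a pseudocount of 0.1, 15 (14) with no filter, 127 (119) with FPKM and 110 (105) with a mean-variance trend. With a library left out they were 10 to 37 (9 to 35 lower), and the lone library of a group is then assumed to vary like the other group.

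Of 26 tested members, 23 kept their direction under each setting. Sema4c (-0.04) was 0.00987 with FPKM, 0.0161 under median-ratio scaling, and -0.13 to 0.0499 with a library left out (0.0250 without control replicate 1). Sema6a (0.05) was -0.00189 to 0.0959 and Sema6b (-0.07) -0.19 to 0.0562 with a library left out (0.00712 without control replicate 1). The cause was not tested.

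The replicate numbers were checked for pairing: across genes, the libraries numbered 1 deviated from their group means with a correlation of 0.126. The labels name no shared litter or day and there are 2 pairs, so the numbers were not taken as pairs. With the replicate block 3 members passed (Nrp1, Sema3e and Sema4d, adjusted p-values 0.00673, 0.0417 and 0.0379 in limma), as did 2 partners (Cntn2 and L1cam) and 265 genes in all (240 lower).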

Other observations

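The replicates of a group were compared for each member. Between the libraries labelled Isl1cKO the difference in log2(TPM + 1) was larger in size than between the controls for 20 of the 31 members, with medians of 0.158 and 0.141. The widest gaps between the libraries labelled Isl1cKO were at Sema3a (-0.67, replicate 2 minus replicate 1), Nrp1 (-0.61) and Sema3e (-0.50). For Nrp1 the controls also differed by -0.51, and for Sema3e by -0.02. Sema5b went the other way, with 0.34 between the libraries labelled Isl1cKO and -0.15 between the controls.

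Few annotated transcripts overlap the members. Plxna4os1, antisense to Plxna4, was listed at 0 in each library. The highest was Mir7118 within Plxnb2, on the same strand, with a mean of 3.35 TPM.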
